A study of Mus musculus with 5 samples.

Results

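The genes described are those of the mitochondrial respiratory chain and of the ATP synthase, encoded by the mitochondrial genome and by the nucleus. They were chosen by symbol, as every counted gene that begins with mt-, Nduf, Uqcr or Atp5, with Cox4 to Cox8 or with Sdha to Sdhd, leaving out Ndufa4l2 and pseudogenes. This gave 109 of 32285 counted genes, of which 13 are mitochondrial and 96 nuclear. The nuclear genes comprise 83 that code for subunits and 13 that code for assembly factors and for Cox7a2l, which joins complexes into larger assemblies. They were measured in REX-1 RFP cells, mouse embryonic stem cells that carry a red fluorescent protein under the Rex1 (Zfp42) promoter, with 1 single-cell RNA library for each of 5 conditions. All cells were first grown with LIF, leukaemia inhibitory factor, which holds such cells in the undifferentiated state, and then kept for 72 h in their condition. The library labelled ND was kept without LIF. The library labelled NS was kept with LIF and no sorbitol named in its labels, and the 3 sorbitol libraries with LIF and 200, 250 or 300 mM sorbitol, a polyol used to make the medium hyperosmotic. With 1 library per condition there is no replicate check. No test was made, the intervals given are 95% intervals for counting error only, and condition and library preparation cannot be told apart.

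The respiratory chain passes electrons from NADH and succinate to oxygen. Complex I (NADH dehydrogenase) and complex II (succinate dehydrogenase) hand electrons to coenzyme Q, complex III passes them to cytochrome c, and complex IV (cytochrome c oxidase) passes them to oxygen. Complexes I, III and IV pump protons, and complex V, the ATP synthase, uses the return of those protons to make ATP. The mitochondrial genome codes for a few hydrophobic core subunits of complexes I, III, IV and V. The nucleus codes for all of complex II and for the remaining subunits, so that each of the other complexes is built from products of both genomes. Mouse embryonic stem cells kept with LIF are known to use both glycolysis and respiration.

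The libraries differed in depth. Median UMIs (unique molecular identifiers, each standing for 1 captured RNA molecule) per barcode were 818 in ND, 2135 in NS, and 887, 939 and 800 at 200, 250 and 300 mM sorbitol. After barcodes with fewer than 500 genes were left out, 9240 barcodes were kept in ND, 10000 in NS, and 9985, 10000 and 9849 at the rising doses. Between 34 and 54 of 10000 barcode sequences were shared by any pair of libraries. All 6 pluripotency markers (Pou5f1, Sox2, Nanog, Zfp42, Esrrb and Dppa5a) were detected in every library, with a summed level of 5214 CPM (counts scaled to 1e6 UMIs of the library) in ND, 6238 CPM in NS, and 7465, 8204 and 7368 CPM at the rising doses. Dppa5a held most of the sum in ND and NS, with 3653 and 4855 CPM. Sox2 had 514 CPM in ND and 358 CPM in NS, and Nanog 185 and 123 CPM. Zfp42 had 524 and 562 CPM, Pou5f1 249 and 248 CPM, and Esrrb 89.3 and 91.8 CPM. Fibroblast markers, a check for feeder cells, summed to between 2.40 and 9.33 CPM, with 2 or 3 of 6 at 0. Malat1, a nuclear RNA, stood at 12548 CPM in ND, 14103 CPM in NS, and 22948.5, 22155 and 16622 CPM at the rising doses.

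A pair of overlaps on the mitochondrial genome is shown first, because both genes of each overlap lie on 1 RNA and yet were counted in different proportions. In GENCODE M21 (GRCm38), mt-Atp8 and mt-Atp6 share 43 bases at chrM:7927-7969, and mt-Nd4l and mt-Nd4 share 7 bases at chrM:10167-10173, all on the plus strand. Gene coordinates throughout are from that annotation. The sequences run 5′ to 3′, and the capitals mark the shared bases, which open with the ATG of the downstream gene.
mt-Atp8 and mt-Atp6: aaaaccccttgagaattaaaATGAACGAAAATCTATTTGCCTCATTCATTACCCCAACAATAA
mt-Nd4l and mt-Nd4: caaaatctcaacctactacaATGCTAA

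The 13 mitochondrially encoded genes together held a larger share of UMIs in all 4 other libraries than in NS. Their summed share was 4.98% in ND, 3.98% in NS, and 5.61, 5.78 and 6.13% at 200, 250 and 300 mM sorbitol. The share was therefore lowest in NS, next in ND, and highest in the sorbitol libraries, where it stood higher at each step of dose. On the log2 scale the ratio to NS was 0.32 in ND and 0.50, 0.54 and 0.62 at 200, 250 and 300 mM. A gene that reached 5 CPM in at least 1 of the libraries compared was counted as higher or lower at 1.5-fold. By that rule 0 mitochondrial genes were higher or lower in ND, where 10% of all genes were higher and 7.07% lower. At 200 mM sorbitol 4 were higher and 1 lower, beside 26.8% and 11% of all genes. At 250 mM 3 were higher and 0 lower (26.5% and 8.69% of all genes), and at 300 mM 5 were higher and 1 lower (32.8% and 10.6%). Out of 13 genes, these counts lie near the shares over all genes. When libraries were scaled by the median of gene ratios in place of the total, which lowers every sorbitol ratio by 0.22 to 0.26 and those in ND by 0.02, 2, 1 and 2 mitochondrial genes stayed past 1.5-fold higher at the rising doses, and 2, 1 and 1 were lower. The shares over all genes were not counted under that scaling.

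**Figure D1:**
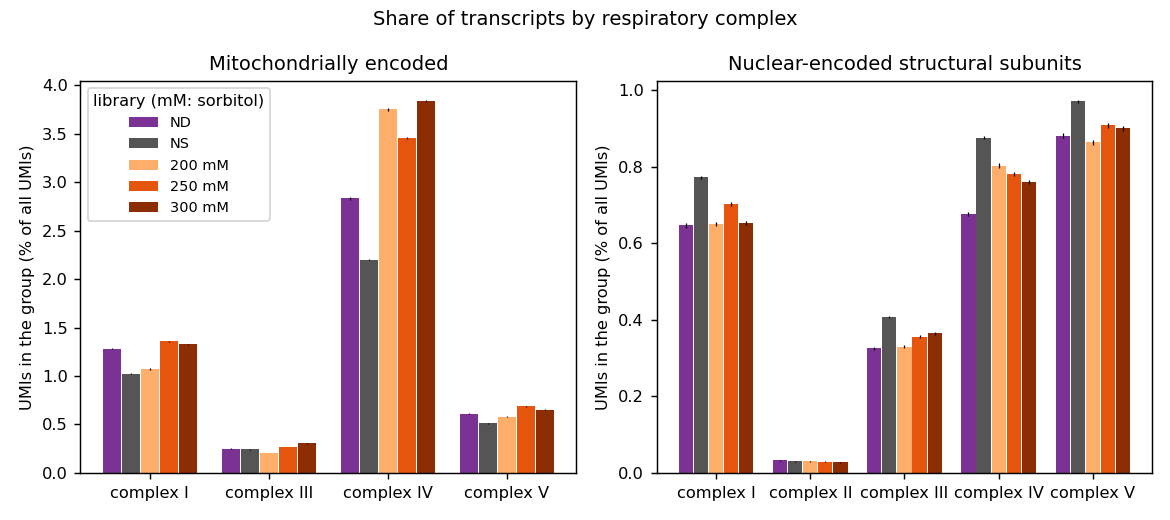
Share of each library's UMIs (%, vertical axis, starting at 0) held by the mitochondrially encoded genes and by the nuclear-encoded subunits of each complex, for ND, NS and the 3 sorbitol libraries, with the bars of the libraries side by side within each complex. Mitochondrial complex IV genes held 2.83% in ND, 2.20% in NS and 3.75%, 3.46% and 3.84% at the rising doses. The nuclear-encoded bars are highest in NS except for complex II, which held 0.0333% in ND and 0.0303% in NS.

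The gain in share was unequal between complexes and was carried mostly by the 3 core subunits of cytochrome c oxidase, mt-Co1, mt-Co2 and mt-Co3. Together they held 2.83% in ND, 2.20% in NS, and 3.75, 3.46 and 3.84% at 200, 250 and 300 mM sorbitol. The 7 complex I genes held 1.28% in ND, 1.02% in NS, and 1.07, 1.36 and 1.33% at 200, 250 and 300 mM sorbitol. Both sums were lowest in NS, but the complex I genes at 200 mM lay only 0.07 above NS on the log2 scale, whereas the complex IV genes lay 0.77 above it. mt-Cytb, the sole mitochondrially encoded subunit of complex III, stood at 2495 CPM in ND, 2417 CPM in NS, and 2069, 2689.6 and 3057 CPM at 200, 250 and 300 mM sorbitol. It was below NS at 200 mM and above it elsewhere, with no ratio past 1.5-fold.

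mt-Co3 (ENSMUSG00000064358, chrM:8607-9390, plus strand) moved most among the 3 oxidase genes. Its level was 8556 CPM in ND, 5975 CPM in NS, and 11372, 10739.8 and 12706 CPM at 200, 250 and 300 mM sorbitol, which made its log2 ratio to NS 0.52 (0.50 to 0.53) in ND and 0.93 (0.92 to 0.94), 0.85 (0.83 to 0.86) and 1.09 (1.08 to 1.10) at 200, 250 and 300 mM. It passed 1.5-fold at all 3 doses and was 2.13-fold higher at 300 mM. mt-Co1, which carries the haem groups and the oxygen-binding centre, had 11376 CPM in ND, 9264 CPM in NS, and 15448, 12963 and 15314 CPM at 200, 250 and 300 mM sorbitol. It passed 1.5-fold at 200 and 300 mM, with log2 ratios of 0.74 and 0.73, and reached 0.48 at 250 mM. mt-Co2, which receives electrons from cytochrome c, had 8409 CPM in ND, 6755 CPM in NS, and 10711, 10910.5 and 10378 CPM at 200, 250 and 300 mM sorbitol, and passed 1.5-fold at all 3 doses. Under median-of-ratios scaling mt-Co3 remained past 1.5-fold at every dose, while mt-Co1 and mt-Co2 did at none.

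Within complex I the genes did not share a pattern. mt-Nd3 stood at 3044 CPM in ND, 2044 CPM in NS, and 2283, 2990.2 and 3147 CPM at 200, 250 and 300 mM sorbitol, and passed 1.5-fold at 300 mM with a log2 ratio of 0.62 (0.60 to 0.64). Both ND and the 250 mM library came close to that, at 0.57 and 0.55, while the 200 mM library stayed at 0.16. The 300 mM ratio fell short of 1.5-fold under median-of-ratios scaling, at 0.36, and with totals that leave out mitochondrial and ribosomal protein genes, at 0.52. mt-Nd1 had 4905 CPM in ND, 3771 CPM in NS, and 3845, 4626 and 4962 CPM at 200, 250 and 300 mM sorbitol, and mt-Nd2 had 2033 CPM in ND, 1728 CPM in NS, and 1896, 2578 and 1866 CPM at 200, 250 and 300 mM sorbitol, without a ratio past 1.5-fold in either gene. mt-Nd5 was below NS in ND and at 200 and 300 mM and above it at 250 mM, with levels of 411 CPM in ND, 489 CPM in NS, and 447, 571 and 459 CPM at 200, 250 and 300 mM sorbitol.

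mt-Nd6, the only protein gene on the other strand of the mitochondrial genome (chrM:13552-14070, minus strand), was counted at 144 CPM in ND, 105 CPM in NS, and 237, 159 and 203 CPM at 200, 250 and 300 mM sorbitol. NS was the lowest library, and the gene was 2.26-fold higher at 200 mM, 1.52-fold at 250 mM and 1.94-fold at 300 mM. Its log2 ratios were 0.46 (0.36 to 0.56) in ND and 1.17 (1.09 to 1.26), 0.60 (0.51 to 0.69) and 0.95 (0.86 to 1.04) at 200, 250 and 300 mM. At 250 mM it fell short of 1.5-fold under median-of-ratios scaling, at 0.36, with totals that leave out mitochondrial and ribosomal protein genes, at 0.52, and without the 5% of barcodes with most UMIs, at 0.55. The use of strand in counting is not given in the sources used here, so mt-Nd6 RNA cannot be told apart from RNA of the opposite strand over the same bases.

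The genes of the overlaps printed above went apart. mt-Atp8, a small subunit of the ATP synthase membrane part, had 293 CPM in ND, 408 CPM in NS, and 203, 315 and 192 CPM at 200, 250 and 300 mM sorbitol. The downstream gene mt-Atp6, which forms the proton channel, had 5796 CPM in ND, 4713 CPM in NS, and 5604, 6567 and 6333 CPM at 200, 250 and 300 mM sorbitol. mt-Atp8 was thus highest in NS and mt-Atp6 lowest there. mt-Atp8 fell 2.01-fold at 200 mM and 2.12-fold at 300 mM, and its log2 ratios were -0.47 (-0.54 to -0.41) in ND and -1.01 (-1.08 to -0.93), -0.37 (-0.43 to -0.31) and -1.09 (-1.16 to -1.01) at 200, 250 and 300 mM. mt-Nd4l and mt-Nd4, both subunits of the membrane arm of complex I, had the same order. The upstream mt-Nd4l had 606 CPM in ND, 682 CPM in NS, and 473, 622 and 616 CPM at 200, 250 and 300 mM sorbitol, while the downstream mt-Nd4 had 1695 CPM in ND, 1410.5 CPM in NS, and 1547, 2022 and 2019 CPM at 200, 250 and 300 mM sorbitol. NS was again the highest library for the upstream gene and the lowest for the downstream one, although neither passed 1.5-fold. How reads within the shared bases were assigned is not given in the sources used here.

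**Figure D2:**
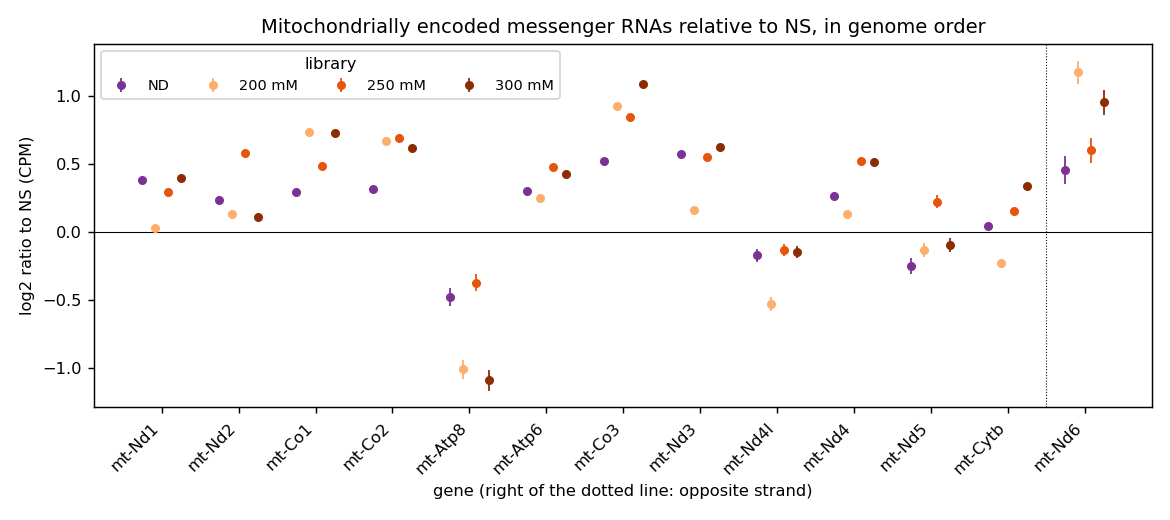
Log2 ratio to NS (vertical axis, CPM, with 95% counting intervals) of each of the 13 mitochondrially encoded genes (horizontal axis), for ND and the 3 sorbitol libraries. mt-Nd6 lies highest, at 1.17 at 200 mM, followed by mt-Co3, at 1.09 at 300 mM. mt-Atp8 lies lowest, at -1.09 at 300 mM, while mt-Nd4l lies below 0 in all 4 libraries.

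Of the 13 genes, 7 have a nuclear copy that matches their last 300 bases at 95% identity or more, and how such reads were counted is not given in the sources used here. mt-Co1, mt-Co2, mt-Co3, mt-Atp6, mt-Nd3 and mt-Nd4l each match a pseudogene on chromosome 1 at 100% identity, and mt-Nd2 matches one on chromosome 2 at 96.7%. These pseudogenes are not among the counted genes. The 6 mitochondrial genes without a copy gave summed log2 ratios of 0.21 in ND and -0.043, 0.27 and 0.34 at the rising doses, so that the excess over NS at 200 mM rested on the genes that have one.

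Set against the nuclear-encoded subunits of the same complexes, the mitochondrial genes were higher in every library other than NS. There were 1.94 mitochondrial UMIs per nuclear-encoded subunit UMI in ND, 1.30 in NS, and 2.10, 2.08 and 2.26 at 200, 250 and 300 mM sorbitol. These ratios lie within a library and do not depend on how libraries are scaled. For complex IV the ratio was 4.18 in ND, 2.51 in NS, and 4.67, 4.43 and 5.04 at the rising doses, so the 300 mM value was 2.01 times that of NS. For complex I it was 1.98 in ND, 1.32 in NS, and 1.65, 1.93 and 2.03 at the rising doses. Complex III had the least difference at 200 mM, with 0.628 there against 0.594 in NS, and reached 0.764 in ND and 0.836 at 300 mM. In complex V the ratio was 0.691 in ND, 0.527 in NS, and 0.672, 0.758 and 0.724 at the rising doses.

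Depth moved with this ratio between libraries, since NS had the most UMIs per barcode and the lowest ratio. Within libraries the ratio could be compared only over the narrow range of depth that each holds. When the barcodes of a library were ranked by UMIs and cut into 4 equal bins, the ratio ran between 1.92 and 1.96 in ND, between 1.27 and 1.32 in NS, and between 2.07 and 2.12, 2.05 and 2.10, and 2.25 and 2.27 at the rising doses. The deepest bin of NS had a mitochondrial share of 3.83% and the shallowest 4.08%, and the lowest ratio of NS was in its deepest bin. All bins but the deepest ran from 741 to 892 UMIs in ND and from 1897 to 2331 in NS. These bins thus do not span the difference in depth between libraries, and the part of depth in the result was not tested.

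The higher mitochondrial share was seen at the low end of the barcodes as well as at the median. With every barcode thinned to 500 UMIs, the median share was 5.0% in ND, 3.8% in NS, and 5.6%, 5.8% and 6.0% at 200, 250 and 300 mM. The 5th percentile was 3.0% in ND, 2.0% in NS, and 3.6%, 3.6% and 4.0% at the rising doses. The standard deviation over barcodes was 1.27 percentage points in ND, 1.26 in NS, and 1.29, 1.37 and 1.33 at the rising doses. If every barcode of a library had drawn its UMIs from 1 shared profile, the binomial formula gives 0.972 in ND, 0.874 in NS, and 1.03, 1.04 and 1.07 at the rising doses, so barcodes spread more widely than that in every library. Shares above 20%, often taken as a sign of damaged cells, did not occur in any deposited barcode, so the 20% limit left out 0 barcodes. The highest unthinned share was 10.3% in ND, 9.57% in NS, and 10.4%, 14.2% and 12.1% at the rising doses. How the deposited barcodes were chosen is not given in the sources used here, so damaged cells may have been left out before. The part of RNA quality in the result was not tested. Across barcodes of a library the mitochondrial and nuclear-encoded shares had Pearson correlations between -0.04 and 0.01, which in counts this sparse is no finding.

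**Figure D3:**
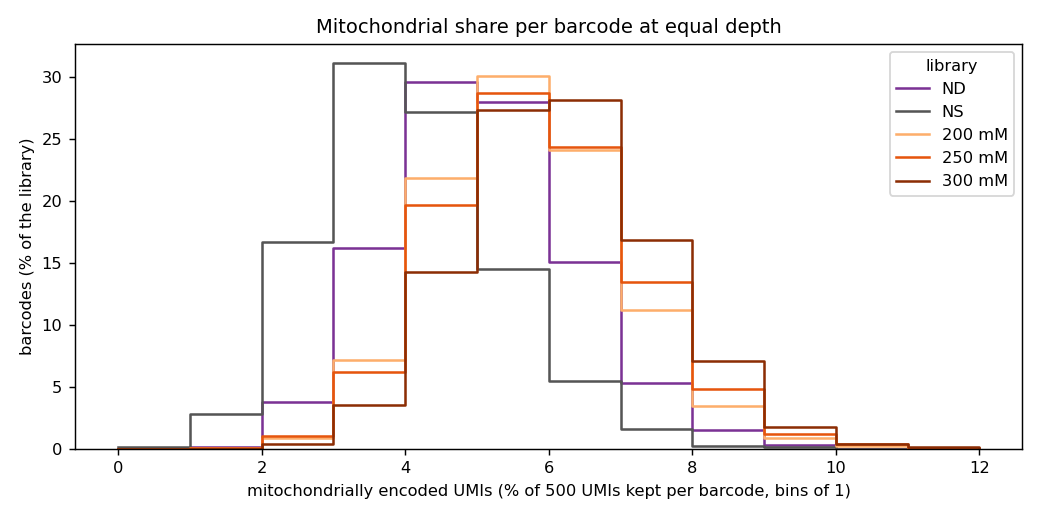
Distribution over barcodes of the mitochondrially encoded share (horizontal axis, % of the 500 UMIs kept per barcode, in bins of 1; vertical axis, % of the library's barcodes), 1 line per library. The NS line lies furthest left with a median of 3.8%, ND follows at 5.0%, and the sorbitol lines lie at 5.6%, 5.8% and 6.0%.

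The nuclear-encoded subunits went the other way as a group, by a smaller amount. Their summed share was 2.57% in ND, 3.06% in NS, and 2.68, 2.78 and 2.71% at 200, 250 and 300 mM sorbitol. It was highest in NS, and the log2 ratio to NS was -0.25 in ND and -0.19, -0.14 and -0.18 at 200, 250 and 300 mM. Of the 96 nuclear genes, 92 reached 5 CPM and were measured. Among these 0 were 1.5-fold higher and 4 lower in ND, beside 10% and 7.07% of all genes. The counts were 0 and 12 at 200 mM (26.8% and 11% of all genes), 0 and 9 at 250 mM (26.5% and 8.69%), and 1 and 15 at 300 mM (32.8% and 10.6%). The count of higher genes thus lay well below the share over all genes, and the count of lower ones below it in ND and near or above it at the doses. Single genes ran between -2.68 and 0.42 in ND and, at the rising doses, between -0.96 and 0.51, between -1.71 and 0.49 and between -2.16 and 0.60. Their median log2 ratio was -0.22 in ND and -0.24, -0.15 and -0.22 at the rising doses, while the median over all genes was 0.08 in ND and 0.20, 0.23 and 0.29. For the more abundant genes, with 100 CPM or more in at least 1 of the libraries compared, the median was 0.06 in ND and -0.06, 0.05 and 0.09 at the rising doses. All genes with transcripts under 1000 bases had medians of -0.15 in ND and -0.26, -0.20 and -0.30 at the doses. Subunits of that length had -0.32 in ND and -0.24, -0.11 and -0.19. Among short transcripts a fall under sorbitol was thus not particular to the subunits. Longer subunits had -0.13 in ND and -0.21, -0.09 and -0.25, against 0.10, 0.23, 0.25 and 0.33 for all longer genes. The part of length was not tested.

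The counting interval lay wholly below NS for 63 of the 92 in ND and for 58, 50 and 58 at the rising doses, beside 21%, 25.7%, 22.1% and 22.6% of all genes. It lay wholly above NS for 10 in ND and 19 at each dose, beside 33.8%, 47.6%, 50.2% and 52.6% of all genes.

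Most nuclear genes kept to 1 side of NS across doses. Of the 92, 53 lay below NS at all 3 doses, 18 above it at all 3, and 21 on both sides, and 47 lay below NS in ND as well. Of all 10366 genes measured at all 3 doses, 26.2% lay below NS at every dose and 53.3% above it. The comparisons share the NS library, so their common direction is not independent. Those 1.5-fold lower at every dose were Ndufs7, Ndufaf8, Cox8a, Cox4i2, Cox6b2 and Atp5k. These 6 genes of 92 lie near the share over all genes, which was 5.79%. Another 12 genes had intervals above NS at every dose, among them Sdha, Atp5a1, Atp5b and Uqcrh, beside 37.7% of all genes. With median-of-ratios scaling the lower counts were 36, 22 and 37 at the rising doses and 6 in ND, and none was higher, so the number called rests on the scaling. That scaling lowers the ratios of all genes, and the share over all genes was not counted under it. A sorbitol ratio above 0 but smaller than the shift of 0.22, 0.24 and 0.26 at the rising doses changes side under that scaling, among them those of Atp5b at 200 and 300 mM and of mt-Nd1 and the summed mitochondrial complex I genes at 200 mM.

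**Figure D4:**
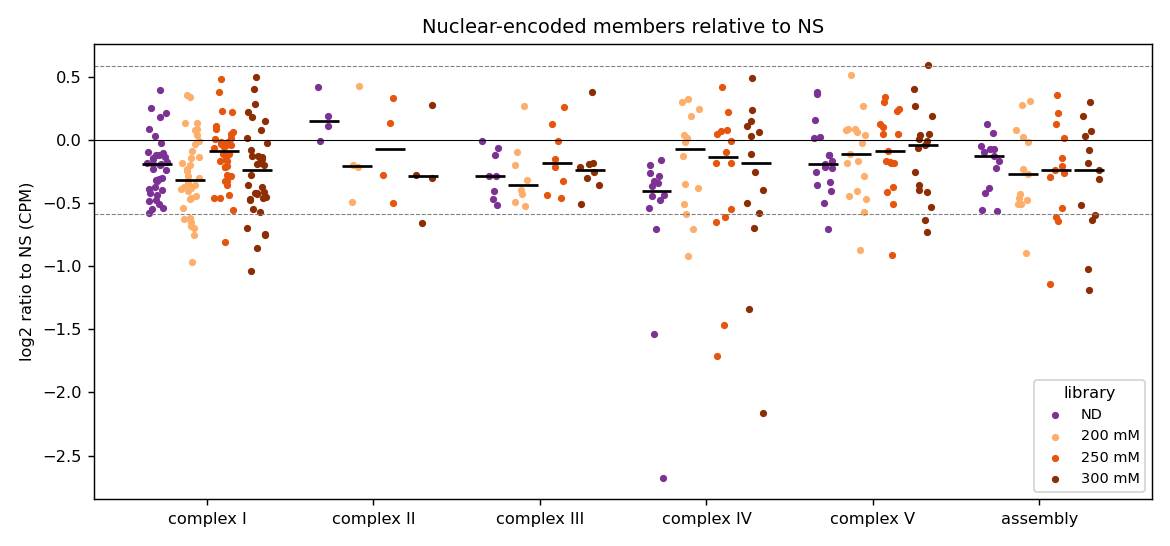
Log2 ratio to NS (vertical axis, CPM) of the 92 measured nuclear-encoded genes, grouped by complex and assembly factors, with 1 point per gene and a black bar at each median, for ND and the 3 sorbitol libraries. Dashed lines mark 1.5-fold. Complex IV in ND has its median at -0.40 with all 14 points below 0, and Cox4i2 is the lowest point, at -2.68.

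Complex I has the most nuclear genes, 36, all measured. In ND 30 of them lay below NS and 0 passed 1.5-fold. At 200, 250 and 300 mM 7, 1 and 5 fell past 1.5-fold and 0 were higher. Of all genes 7.07% were lower and 10% higher in ND. At the rising doses 11%, 8.69% and 10.6% of all genes were lower and 26.8%, 26.5% and 32.8% higher. The nuclear-encoded core of complex I is the part that holds the flavin and the iron-sulphur clusters along which electrons travel. Ndufs7 (ENSMUSG00000020153, chr10:80249121-80256794, plus strand), the core subunit next to the coenzyme Q site, had 120.0 CPM in ND, 150.1 CPM in NS, and 76.9, 85.9 and 73.1 CPM at 200, 250 and 300 mM sorbitol. It was highest in NS, lower in ND and lowest in all sorbitol libraries, with log2 ratios of -0.32 (-0.43 to -0.22) in ND and -0.96 (-1.08 to -0.85), -0.80 (-0.92 to -0.69) and -1.04 (-1.17 to -0.91) at 200, 250 and 300 mM. Ndufs8, another iron-sulphur subunit, had 54.9 CPM in ND, 59.4 CPM in NS, and 35.4, 57.1 and 35.2 CPM at 200, 250 and 300 mM sorbitol, and fell 1.68-fold at 200 mM and 1.69-fold at 300 mM, while the 250 mM library lay close to NS. Ndufs1, the largest core subunit, was on the other side. It had 44.1 CPM in ND, 38.8 CPM in NS, and 49.6, 54.4 and 51.3 CPM at 200, 250 and 300 mM sorbitol, with a log2 ratio of 0.49 (0.33 to 0.64) at 250 mM and none past 1.5-fold.

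Among the accessory subunits of complex I, which surround the core, Ndufa13 had 142 CPM in ND, 197 CPM in NS, and 122, 143 and 109 CPM at 200, 250 and 300 mM sorbitol. It fell 1.62-fold at 200 mM and 1.81-fold at 300 mM. Ndufa13 shares its strand and its span with another annotated gene, Yjefn3, so its counts are uncertain. Ndufab1, which is also the mitochondrial acyl carrier protein, stood at 189 CPM in ND, 185 CPM in NS, and 127, 137 and 110.3 CPM at 200, 250 and 300 mM sorbitol. It was level with NS in ND and fell 1.67-fold at 300 mM. Ndufb8 fell 1.57-fold at 200 mM and 1.62-fold at 300 mM. Ndufa9, Ndufb2 and Ndufb7 passed 1.5-fold lower at 200 mM only, at 1.55-fold, 1.60-fold and 1.54-fold. They lay below NS at 250 and 300 mM as well. Their log2 ratios there were -0.21 and -0.42 for Ndufa9, -0.32 and -0.45 for Ndufb2, and -0.20 and -0.47 for Ndufb7. Ndufb8 and Ndufb2 share their strand and part of their span with the annotated genes Gm20538 and Gm42420, so their counts are uncertain too.

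Some accessory subunits differed between ND and sorbitol. Ndufa3, a small membrane subunit, had 156 CPM in ND, 227 CPM in NS, and 249, 295 and 321 CPM at 200, 250 and 300 mM sorbitol. Its ratio to NS was -0.54 (-0.63 to -0.45) in ND and 0.50 (0.43 to 0.57) at 300 mM, so it was lowest without LIF and highest at the top dose. Ndufa10 differed the other way. It had 229 CPM in ND, 173 CPM in NS, and 152, 166 and 170.2 CPM at 200, 250 and 300 mM sorbitol, which put ND highest, at 0.40 (0.32 to 0.48). Neither gene passed 1.5-fold in any comparison. Ndufa7, another accessory subunit, came nearest to that in ND, at -0.58, and was -0.38, -0.55 and -0.55 at the rising doses.

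Succinate dehydrogenase, which also works in the citric acid cycle, is made of 4 nuclear-encoded subunits. Sdha, the flavin-carrying subunit that oxidises succinate, had 127 CPM in ND, 111 CPM in NS, and 149, 140.3 and 134 CPM at 200, 250 and 300 mM sorbitol. Sdhb, its iron-sulphur partner, had 90.4 CPM in ND, 91.1 CPM in NS, and 64.98, 75.2 and 57.6 CPM at 200, 250 and 300 mM sorbitol. Sdha was lowest in NS, while Sdhb was level in ND and NS and fell 1.58-fold at 300 mM. The log2 ratio at 300 mM was 0.28 (0.17 to 0.38) for Sdha and -0.66 (-0.81 to -0.52) for Sdhb. The membrane anchors Sdhc and Sdhd did not pass 1.5-fold. Sdhc had 77.7 CPM in ND, 72.03 CPM in NS, and 62.8, 50.99 and 58.5 CPM at 200, 250 and 300 mM sorbitol, and Sdhd 38.2 CPM in ND, 28.6 CPM in NS, and 24.7, 31.4 and 23.6 CPM at 200, 250 and 300 mM sorbitol, with the ND value of Sdhd at 0.42 (0.21 to 0.62).

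All 8 nuclear genes of complex III chosen by symbol lay below NS in ND, with a median of -0.29, and 7, 6 and 7 of 8 lay below it at the rising doses. The median over all genes was 0.08 in ND and 0.20, 0.23 and 0.29 at the doses. Cyc1, the cytochrome c1 subunit of complex III, is left out by the symbol rule. It lay above NS in ND, with 271 CPM in ND and 254 CPM in NS, at 0.09 (0.02 to 0.17) on the log2 scale. None of the 8 passed 1.5-fold. Of all genes 7.07% were lower and 10% higher in ND, and more in both directions at the doses. The Rieske iron-sulphur protein Uqcrfs1 had 129 CPM in ND, 135 CPM in NS, and 93.6, 98.1 and 95.03 CPM at 200, 250 and 300 mM sorbitol. Uqcrb, a small subunit near the coenzyme Q site, had 196 CPM in ND, 281 CPM in NS, and 263, 280.3 and 228 CPM at 200, 250 and 300 mM sorbitol. Uqcrfs1 was therefore lower under sorbitol and near NS in ND, and Uqcrb was lowest in ND. Uqcrh, the hinge protein that helps cytochrome c to dock, was the gene among the 8 above NS at every dose. It had 378 CPM in ND, 379.7 CPM in NS, and 457, 456 and 496 CPM at 200, 250 and 300 mM sorbitol, with log2 ratios of -0.01 in ND and 0.27, 0.26 and 0.38 at 200, 250 and 300 mM.

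In complex IV all 14 measured nuclear genes lay below NS in ND, with a median log2 ratio of -0.40, and 3 of them (Cox4i2, Cox6b2 and Cox7a1) fell past 1.5-fold. Of all genes 7.07% were 1.5-fold lower in ND. At 200, 250 and 300 mM 8, 9 and 8 of the 14 lay below NS, so the split was nearer to even. The median over all genes was 0.08 in ND and 0.20, 0.23 and 0.29 at the doses, so more genes lay above NS than below it. Cox8a, a small subunit of the membrane part, had 922 CPM in ND, 1251 CPM in NS, and 767, 796 and 774 CPM at 200, 250 and 300 mM sorbitol. It fell 1.63-fold, 1.57-fold and 1.62-fold at the rising doses, and was at -0.44 in ND. Cox5b, a zinc-binding subunit on the matrix side, had 319 CPM in ND, 383 CPM in NS, and 269.6, 251 and 257 CPM at 200, 250 and 300 mM sorbitol, and fell 1.52-fold at 250 mM. Cox5a was lowest in ND and close to NS under sorbitol, with 469.8 CPM in ND, 681 CPM in NS, and 672, 717 and 713 CPM at 200, 250 and 300 mM sorbitol. Cox6a1 was also lowest in ND but above NS under sorbitol, with 292 CPM in ND, 356 CPM in NS, and 445, 477 and 421 CPM at 200, 250 and 300 mM sorbitol. Ndufa4, once assigned to complex I and now known as a cytochrome c oxidase subunit, had 349 CPM in ND, 449.8 CPM in NS, and 513, 449 and 487 CPM at 200, 250 and 300 mM sorbitol.

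Several complex IV subunits exist as a general form and a tissue form, and a tissue form gave the lowest ratio of any nuclear gene in ND and at 250 and 300 mM. Cox4i2 (ENSMUSG00000009876, chr2:152754173-152765037, plus strand), the form known from lung and from cells at low oxygen, was counted at 3.04 CPM in ND, 19.5 CPM in NS, and 10.3, 5.94 and 4.34 CPM at 200, 250 and 300 mM sorbitol. It was highest in NS and past 1.5-fold lower in all 4 other libraries, furthest in ND. Its log2 ratios were -2.68 (-3.34 to -2.09) in ND and -0.92 (-1.25 to -0.59), -1.71 (-2.13 to -1.31) and -2.16 (-2.70 to -1.67) at 200, 250 and 300 mM, from 24 UMIs in ND, 431 in NS, and 95, 58 and 36 at the rising doses. The general form Cox4i1 had 1226 CPM in ND, 1531 CPM in NS, and 1575, 1618 and 1415 CPM at 200, 250 and 300 mM sorbitol, and did not pass 1.5-fold. Cox4i1 shares its strand and its span with another annotated gene, Gm20388, so its counts are uncertain.

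Cox7a1 (ENSMUSG00000074218, chr7:30184144-30186078, plus strand), known as the heart and skeletal muscle form, lay far below NS in ND and not under sorbitol. It had 33.8 CPM in ND, 97.9 CPM in NS, and 121, 114 and 138 CPM at 200, 250 and 300 mM sorbitol. ND was the only library below NS, 2.90-fold lower, and all sorbitol libraries were above NS without passing 1.5-fold, except that under median-of-ratios scaling the 250 mM library came to lie just below it. The log2 ratios were -1.54 (-1.72 to -1.35) in ND and 0.30 (0.20 to 0.41), 0.22 (0.12 to 0.33) and 0.49 (0.39 to 0.60) at 200, 250 and 300 mM. Its general counterpart Cox7a2 had 411 CPM in ND, 459.9 CPM in NS, and 465, 406 and 469.7 CPM at 200, 250 and 300 mM sorbitol. Muscle markers (Myh6, Myh7, Actc1, Tnnt2 and Myod1) summed to 4.05 CPM in ND, 3.07 CPM in NS, and 3.58, 4.096 and 2.65 CPM at the rising doses.

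Cox6b2 (ENSMUSG00000051811, chr7:4751792-4753094, minus strand), the testis form, was highest in NS in the same way as Cox4i2. Its level was 51.99 CPM in ND, 84.7 CPM in NS, and 56.3, 30.7 and 33.4 CPM at 200, 250 and 300 mM sorbitol. It fell past 1.5-fold in every other library, most at 250 mM, where it was 2.76-fold lower. The general form Cox6b1 had 277 CPM in ND, 375 CPM in NS, and 288, 330.4 and 285 CPM at 200, 250 and 300 mM sorbitol, with no ratio past 1.5-fold. The germ cell markers Ddx4, Dazl and Sycp3 had a summed level of 77.2 CPM in ND, 129.9 CPM in NS, and 65.1, 50.2 and 53.8 CPM at the rising doses. Sycp3 held most of the sum in ND and NS, with 59.4 CPM in ND, 106.7 CPM in NS, and 27.9, 16.6 and 14.1 CPM at the doses. Of the 3 markers 0 were higher and 1 lower in ND, and 1 was higher and 2 lower at every dose, where Dazl was the higher one, with 6.45 CPM in ND, 8.03 CPM in NS, and 28.6, 24.4 and 32.9 CPM at the doses. The part of these markers in the result was not tested. Cox6a2, Cox7b2 and Cox8c stayed below 3 CPM in every library, and Cox8b had 3 UMIs in NS and 0 in the others.

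**Figure D5:**
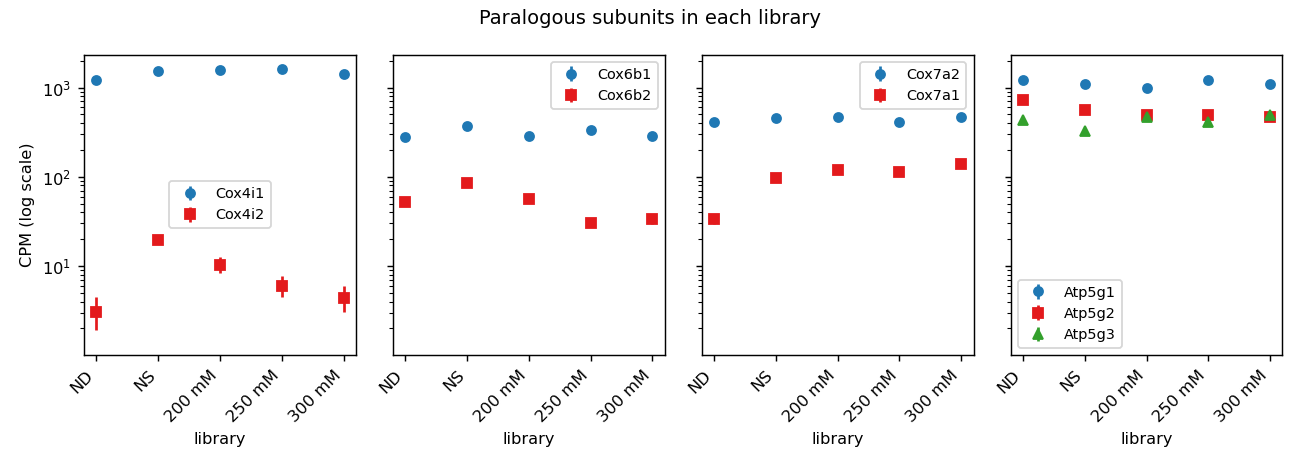
Level (vertical axis, CPM on a log scale, with 95% counting intervals) of alternative forms of 4 subunits in each library (horizontal axis). Cox4i2 is highest in NS, at 19.5 CPM, and lowest in ND, at 3.04 CPM, Cox7a1 is low only in ND, at 33.8 CPM, and Atp5g3 is lowest in NS, at 328 CPM.

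In the ATP synthase all 5 nuclear-encoded genes of the membrane sector lay below NS in ND and at 250 mM, and 3 of 5 did at 200 and 300 mM. Over all genes the median log2 ratio lay above 0 in each comparison. Atp5k (ENSMUSG00000050856, chr5:108433244-108434448, minus strand), subunit e, which helps the enzyme to form dimers in the inner membrane, had 695 CPM in ND, 1135 CPM in NS, and 619.5, 603 and 686 CPM at 200, 250 and 300 mM sorbitol. NS stood apart from the other libraries, in which the gene fell 1.63-fold in ND and 1.83-fold, 1.88-fold and 1.65-fold at the rising doses. A processed pseudogene, Atp5k-ps2, matches the end of Atp5k at 95.7% identity. In all, 20 nuclear genes have a near-identical copy, among them Atp5g1, Atp5g2, Cox5a, Cox6a1, Uqcrb and Uqcrh. How reads from such copies were counted is not given in the sources used here, so the counts of these genes are uncertain. Of the F1 head, the catalytic subunit genes Atp5a1 and Atp5b lay above NS at all 3 doses and within 0.02 of it in ND, without passing 1.5-fold. Atp5a1 had 469.9 CPM in ND, 464 CPM in NS, and 559, 550.0 and 615 CPM at 200, 250 and 300 mM sorbitol, and Atp5b had 837 CPM in ND, 823 CPM in NS, and 877, 1014 and 939.8 CPM at 200, 250 and 300 mM sorbitol. The central stalk genes went below NS, and Atp5d fell 1.55-fold at 300 mM, with 304 CPM in ND, 353 CPM in NS, and 237, 266 and 228 CPM at 200, 250 and 300 mM sorbitol, while Atp5c1 reached -0.53 (-0.60 to -0.47) there.

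The c-ring, the rotor through which protons pass, is made of copies of 1 mature protein that 3 genes encode, Atp5g1, Atp5g2 and Atp5g3. All 3 were above NS in ND, at 0.16, 0.37 and 0.38 on the log2 scale. Under sorbitol they parted. Atp5g3 had 428 CPM in ND, 328 CPM in NS, and 468, 415 and 496 CPM at 200, 250 and 300 mM sorbitol, and passed 1.5-fold at 300 mM, the sole nuclear gene higher by that rule, though not under median-of-ratios scaling. Atp5g2 had 717 CPM in ND, 556 CPM in NS, and 491, 497 and 468 CPM at 200, 250 and 300 mM sorbitol, so that sorbitol lay below NS and ND above it. Atp5g1 had 1226 CPM in ND, 1096 CPM in NS, and 975, 1199 and 1091 CPM at 200, 250 and 300 mM sorbitol. In the peripheral stalk, which holds the head still, Atp5f1 had 221 CPM in ND, 311 CPM in NS, and 319, 334 and 319.6 CPM at 200, 250 and 300 mM sorbitol, and all 4 genes of this sector lay below NS in ND. Atp5md, a small membrane subunit, had 422 CPM in ND, 558 CPM in NS, and 582, 493 and 674 CPM at 200, 250 and 300 mM sorbitol.

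Of the 13 assembly genes 0, 1, 3 and 4 fell past 1.5-fold in ND and at 200, 250 and 300 mM, and none was higher. The shares over all genes in the same order were 7.07%, 11%, 8.69% and 10.6% lower and 10%, 26.8%, 26.5% and 32.8% higher. Ndufaf8, which supports an early step of complex I assembly, had 93.9 CPM in ND, 106 CPM in NS, and 56.7, 47.8 and 46.2 CPM at 200, 250 and 300 mM sorbitol. It was close to NS in ND and lower at every dose, with log2 ratios of -0.17 (-0.29 to -0.05) in ND and -0.90 (-1.03 to -0.76), -1.14 (-1.29 to -0.998) and -1.19 (-1.35 to -1.04) at 200, 250 and 300 mM. Sdhaf3, which helps to load iron-sulphur clusters into Sdhb, had 10.2 CPM in ND, 15.2 CPM in NS, and 12.9, 9.73 and 7.48 CPM at 200, 250 and 300 mM sorbitol, and fell 1.56-fold at 250 mM and 2.03-fold at 300 mM. Ndufaf7, a methyltransferase for a complex I subunit, fell 1.53-fold and 1.56-fold at those doses. Its transcript end holds sequence that matches many other genes, so its counts are uncertain. Ndufaf3 fell 1.51-fold at 300 mM. Ndufaf2 was above NS at every dose, with 92.97 CPM in ND, 99.2 CPM in NS, and 120.0, 127 and 122 CPM at 200, 250 and 300 mM sorbitol.

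Promoter windows of 300 bases, from 250 before to 50 after the gene start, were at hand for 80 of the 96 nuclear genes (RefSeq, GRCm38.p6). These starts can differ from those of GENCODE M21, and the Ndufs7 window lies within the gene span given above. They were searched on both strands for motifs of factors known to bind promoters of respiratory genes. The NRF1 motif, the palindrome in capitals in the Atp5k window below, was found in 7 of the 80, or 8.75%, against 0.977% of all 27025 windows. The YY1 motif AAGATGGCG was in 7, or 8.75%, against 1.49% of all windows. The ERR motif TCAAGGTCA was in 2, or 2.50%, against 0.407%, and the ETS motif CCGGAAGT in 5, or 6.25%, against 4%. The genes with the NRF1 motif were Atp5g2, Atp5k, Cox6a1, Ndufa11, Ndufaf4, Ndufaf5 and Uqcrc1. Those with the YY1 motif were Atp5j2, Ndufa9, Ndufaf8, Ndufc1, Ndufs4, Ndufs6 and Ndufs7. Cox6a1 and Atp5k, which share a motif, went to opposite sides of NS under sorbitol. A match is a description of the letters and not a binding site. The windows below belong to genes that were 1.5-fold lower at all 3 doses and hold an NRF1 or YY1 motif, and the capitals mark it.
Atp5k (chr5:108434350-108434649, minus strand, NRF1): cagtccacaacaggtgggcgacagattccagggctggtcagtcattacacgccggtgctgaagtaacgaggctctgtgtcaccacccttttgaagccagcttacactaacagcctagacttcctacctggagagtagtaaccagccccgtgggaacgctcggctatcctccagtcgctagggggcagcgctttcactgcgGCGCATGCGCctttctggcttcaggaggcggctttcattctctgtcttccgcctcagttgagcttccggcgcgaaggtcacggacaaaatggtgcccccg
Ndufs7 (chr10:80249199-80249498, plus strand, YY1): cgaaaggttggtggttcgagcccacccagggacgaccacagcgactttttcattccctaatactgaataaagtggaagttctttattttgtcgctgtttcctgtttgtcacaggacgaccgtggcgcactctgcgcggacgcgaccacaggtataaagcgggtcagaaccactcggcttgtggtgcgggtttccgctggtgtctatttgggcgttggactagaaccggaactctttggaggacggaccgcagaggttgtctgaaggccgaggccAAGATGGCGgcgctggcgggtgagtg
Ndufaf8 (chr11:120098684-120098983, plus strand, YY1): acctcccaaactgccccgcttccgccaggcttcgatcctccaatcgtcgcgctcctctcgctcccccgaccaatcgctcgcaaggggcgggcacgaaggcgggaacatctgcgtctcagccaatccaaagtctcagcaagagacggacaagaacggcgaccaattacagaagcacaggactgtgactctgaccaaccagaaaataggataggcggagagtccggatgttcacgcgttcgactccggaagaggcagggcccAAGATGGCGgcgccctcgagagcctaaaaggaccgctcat

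The factors that act on the mitochondrial genome and its RNA were a further list of 19 genes. In ND 3 were higher and 0 lower, and at the rising doses 2, 4 and 4 were higher and 1 was lower each time. The dose counts of higher genes lie below the shares over all genes, which were 26.8%, 26.5% and 32.8%, against 10% in ND. Lrpprc, which binds and stabilises mitochondrial messenger RNA, had 74.4 CPM in ND, 45.99 CPM in NS, and 74.4, 94.7 and 83.2 CPM at 200, 250 and 300 mM sorbitol, and passed 1.5-fold in all 4 libraries. Polg, the mitochondrial DNA polymerase, had 60.8 CPM in ND, 51.7 CPM in NS, and 88.1, 74.7 and 91.8 CPM at 200, 250 and 300 mM sorbitol. Twnk, the helicase that works with it, had 20.7 CPM in ND, 13.6 CPM in NS, and 17.9, 21.4 and 23.2 CPM at 200, 250 and 300 mM sorbitol. The gene that fell was Ssbp1, the single-strand DNA-binding protein of the mitochondrion, with 159 CPM in ND, 190.0 CPM in NS, and 114, 112 and 98.9 CPM at 200, 250 and 300 mM sorbitol. Tefm, an elongation factor for mitochondrial transcription, was higher in ND, at 0.60 on the log2 scale, and stood at -0.49, -0.38 and -0.37 at the rising doses, short of 1.5-fold.

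Other genes that serve the chain gave mixed counts. Among 36 measured assembly factors and electron carriers outside the symbol rule, 1 was higher and 3 lower in ND, and 2, 2 and 1 were higher and 8, 3 and 4 lower at the rising doses. Over all genes 10% were higher and 7.07% lower in ND. At the doses 26.8%, 26.5% and 32.8% of all genes were higher and 11%, 8.69% and 10.6% lower. The lower count lay above that share at 200 mM and near it elsewhere. Higd1a, a low-oxygen gene that associates with complex IV, had 404 CPM in ND, 803 CPM in NS, and 410.3, 337 and 359.9 CPM at 200, 250 and 300 mM sorbitol, with NS the highest library. Cycs, the cytochrome c that carries electrons to complex IV, had 124 CPM in ND, 176 CPM in NS, and 115, 126 and 99.4 CPM at 200, 250 and 300 mM sorbitol. Acad9, which helps complex I to assemble, stood lowest in NS, with 20.2 CPM in ND, 12.4 CPM in NS, and 24.4, 27.6 and 31.1 CPM at 200, 250 and 300 mM sorbitol. Sco2, which delivers copper to mt-Co2, had 17.6 CPM in ND, 23.9 CPM in NS, and 5.53, 10.03 and 10.97 CPM at 200, 250 and 300 mM sorbitol, so the copper chaperone was lowest at 200 mM. In coenzyme Q synthesis 0, 3, 4 and 4 of the 11 genes were higher in ND and at the rising doses, where 10 were measured in ND and all at the doses, and 0, 1, 1 and 1 were lower. These counts lie near the shares over all genes. Coq4 had 23.9 CPM in ND, 18.4 CPM in NS, and 37.9, 54.5 and 38.6 CPM at 200, 250 and 300 mM sorbitol, while Coq7 had 56.2 CPM in ND, 51.8 CPM in NS, and 24.6, 28.1 and 25.8 CPM at 200, 250 and 300 mM sorbitol.

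The 78 mitochondrial ribosomal protein genes, which translate the 13 mitochondrial messages, had 0 lower in ND and 18, 8 and 17 lower at the rising doses, with 0, 1, 2 and 2 higher. The share of all genes that was lower was 7.07% in ND and 11%, 8.69% and 10.6% at the doses, so that 8 of 78 at 250 mM lies near it. The share that was higher was 10% in ND and 26.8%, 26.5% and 32.8% at the doses. Their median log2 ratio was 0.07 in ND and -0.35, -0.18 and -0.38 at the doses. Of 15 genes for protein import, 0 were lower in ND and 6, 4 and 3 at the doses, and none was higher. Timm13, which guides inner membrane proteins, had 328 CPM in ND, 336 CPM in NS, and 137, 164 and 132 CPM at 200, 250 and 300 mM sorbitol. The 17 citric acid cycle genes had medians of 0.02 in ND and 0.20, 0.07 and 0.24 at the doses, with at most 2 past 1.5-fold in a direction. Among the 18 genes of glucose breakdown and hypoxia, 5 were lower and 0 higher in ND, and 4, 5 and 6 were lower and 2, 1 and 3 higher at the rising doses. Hk2, which traps glucose in the cell, had 509 CPM in ND, 1038 CPM in NS, and 971, 971 and 1092 CPM at 200, 250 and 300 mM sorbitol, and passed 1.5-fold lower in ND and not at the doses. Ndufa4l2, the low-oxygen relative of Ndufa4 that the symbol rule leaves out, had 43.00 CPM in ND, 138 CPM in NS, and 54.1, 43.7 and 37.7 CPM at 200, 250 and 300 mM sorbitol, with NS the highest library.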

How the data were processed

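The authors deposited 1 matrix per library of raw UMI counts of genes in barcodes, and per the file headers Cell Ranger 6.0.1 wrote it. The submitters' processing notes also name Seurat 4.1.1, R 4.1.2 and mm10, without roles. The labels' protocols name a Trizol lysis and a Lexogen library kit, while the files are droplet matrices, and which steps apply was not settled. Annotation, use of strand and choice of barcodes were not given in the sources used here.

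Kept were barcodes in which 500 genes or more were detected and mitochondrial UMIs made up no more than 20%, and no doublet caller was run. UMIs were summed per library and scaled to CPM. Total UMIs were 8483612 in ND, 22158653 in NS, and 9230639, 9766705 and 8404105 at 200, 250 and 300 mM sorbitol. Levels have exact Poisson intervals, log2 ratios exact conditional binomial ones and shares Clopper-Pearson ones, at 95% and for counting error only. Counts under 3 UMIs were set to 3 for ratios, and no ratio is given where both libraries are at or under that. Levels are not compared between genes, since UMIs come from transcript ends.

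The members, lists and naming rule were chosen with earlier results of these data known. Named were all mitochondrial genes, all members past 1.5-fold, paralogous forms, the extremes of each complex with at least 20 CPM, and the largest ratios per related list. Because no protein table was given, transcript length took the place of protein length. Copies were sought with BLAST 2.17.0 over the last 300 transcript bases, with 95% identity over at least 90 bases, against GENCODE M21. Ratios were checked on simulated counts. Python 3.11.15, numpy 2.4.6, scipy 1.17.1, pandas 2.3.3 and matplotlib 3.10.9 were used.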

Additional observations from a re-analysis of the deposited data

How the results depend on the processing

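Values follow the order ND, 200, 250 and 300 mM. With median-of-ratios scaling the summed mitochondrial log2 ratios to NS were 0.30, 0.28, 0.30 and 0.36, against 0.32, 0.50, 0.54 and 0.62 with CPM, and the summed nuclear-encoded subunits were -0.27, -0.41, -0.37 and -0.44, against -0.25, -0.19, -0.14 and -0.18. Nuclear genes 1.5-fold lower then numbered 36, 22 and 37 at the doses, and 0 were higher at 300 mM. The median of the 13 mitochondrial genes at 200 mM was -0.09, against 0.13 with CPM. With totals that leave out mitochondrial and ribosomal protein genes the mitochondrial sums were 0.28, 0.47, 0.45 and 0.52, the nuclear sums -0.30, -0.22, -0.22 and -0.28, with 8 lower in ND and 0 higher at 300 mM. With all barcodes the mitochondrial sum in ND was 0.33, and without the 5% of barcodes with most UMIs it was 0.61 at 300 mM. A minimum of 1 CPM gave 1, 1 and 2 higher nuclear genes at the doses. At 2-fold 2, 0, 3 and 5 were lower and 0 higher at 300 mM. Shares over all genes were counted only with CPM, 5 CPM and 1.5-fold, so counts under other settings have no such background. Members without a near-identical copy, an alternative chosen after seeing the data, gave mitochondrial sums of 0.21, -0.043, 0.27 and 0.34, which changed direction at 200 mM, and by construction leave out mt-Co1, mt-Co2 and mt-Co3. For the other changes, beyond their construction, the cause was not tested. A limit of 10% mitochondrial UMIs moved none of these sums and counts. No paired analysis was possible because each condition has 1 library. Ratios of genes with few UMIs, such as Cox4i2 in ND, are limited by depth.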

Other observations

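Transcript length, taken in place of protein length after the data were seen, is given as a description. Across the 79 measured nuclear-encoded subunits the Spearman correlation of transcript length with the log2 ratio to NS was 0.43 in ND, and 0.00, 0.13 and 0.01 at the rising sorbitol doses. Across all measured genes it was 0.20 in ND and 0.31, 0.31 and 0.34 at the doses. Genes of 1 library share its depth and base composition and are not independent. Subunits with transcripts under 1000 bases had a median log2 ratio of -0.32 in ND and -0.24, -0.11 and -0.19 at the rising doses, and the longer ones -0.13 in ND and -0.21, -0.09 and -0.25 at the doses. For all genes under 1000 bases the medians were -0.15 in ND and -0.26, -0.20 and -0.30 at the rising doses, and for longer genes 0.10 in ND and 0.23, 0.25 and 0.33 at the doses.

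The 84 cytosolic ribosomal protein genes, another set of short and abundant transcripts, had 83 measured members. Of these 1 was 1.5-fold lower in ND and 4, 9 and 30 at the rising doses, with medians of -0.11 in ND and -0.19, -0.31 and -0.44. Among all genes 7.07% were lower in ND and 11%, 8.69% and 10.6% at the rising doses. Trophoblast markers (Cdx2, Elf5, Tfap2c, Gata3 and Krt8) summed to 133.2 CPM in ND, 79.6 CPM in NS, and 106.6, 143.4 and 142.8 CPM at the rising doses. Tfap2c held most of that sum, with 108.9 CPM in ND, 47.3 CPM in NS, and 86.1, 100.6 and 103.2 CPM at the doses, while Krt8 had 17.6 CPM in ND, 27.98 CPM in NS, and 17.7, 37.8 and 35.1 CPM at the doses.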
